A study of Arabidopsis thaliana with 6 samples.

Results

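The genes described are the beta-glucosidases and beta-galactosidases of Arabidopsis thaliana seedlings, chosen as every gene with an annotated symbol of BGLU or BGAL and a number, plus PYK10. An array probe set that the annotation gives to a single gene was needed. The rule found 22 of the 13356 genes tested, namely 20 BGLU genes, PYK10 and the single beta-galactosidase BGAL16. The gene table used here lists 56 genes of these names, so 34 were not analysed here, among them 14 of the 15 BGAL genes. The results therefore describe beta-glucosidases almost alone.

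RNA was measured on 6 Affymetrix expression arrays: 2 from the mutant bin4-1, 2 from the mutant bin4-2 and 2 from wild type (WT). The labels give the genotype and the word seedlings for each sample. Age, growth conditions, accession and the lesion of each allele were not stated in the labels, nor was it stated whether both arrays of a genotype represent separate cultures. BIN4 is a plant component of topoisomerase VI, an enzyme complex that untangles DNA and is required when cells copy their genome repeatedly without dividing.

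Plant beta-glucosidases of glycoside hydrolase family 1 remove glucose from stored conjugates: monolignols, coumarins, flavonols, glucosinolates and abscisic acid are kept as glucosides and are released by these enzymes. One branch, which holds PYK10, accumulates in ER bodies, rod-shaped endoplasmic reticulum compartments that are abundant in Arabidopsis seedlings and roots and are linked to chemical defence. Beta-galactosidases of family 35 trim galactose from pectic galactan and xyloglucan in the cell wall.

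Values are log2 intensities after the authors' robust multi-array average (RMA). The median was 4.71 to 4.76 on the 6 arrays and the lower quartile was 3.22 to 3.34. Arrays of the same group correlated at 0.995 to 0.997 across probe sets, and mutant with WT arrays at 0.905 to 0.916. BIN4 (AT5G24630) read 3.30 and 3.35 in bin4-1, 2.92 and 3.05 in bin4-2, and 3.78 and 3.93 in WT. Against WT this was a log2 change of -0.53 ± 0.11 for bin4-1 (SE, limma adjusted p = 0.0015). For bin4-2 it was -0.87 ± 0.11 (adjusted p = 3.18e-05). Both bin4-2 values of BIN4 were under the lower quartile of their array (3.275 and 3.220), so this fall may be underestimated in size. The bin4-1 values lay just above theirs (3.249 and 3.290). Both allele comparisons use the same 2 WT arrays and are not independent of each other. In whole seedlings, fewer cells of a type and less RNA per cell cannot be told apart.

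In both alleles, 6 beta-glucosidase transcripts were at least 2-fold higher than in WT, and 1, BGLU33, was at least 2-fold lower. The rises, in order of size in bin4-1, were those of BGLU45, BGLU25, BGLU46, BGLU27, BGLU16 and BGLU15. Rises of this size were made by 7.32% of all genes in bin4-1 and 7.12% in bin4-2, and falls by 6.90% and 6.56%. Without a fold threshold, 8 members were higher and 4 lower in bin4-1, where 22.0% and 25.0% of all genes were. The counts were again 8 and 4 in bin4-2, where 21.1% and 26.6% of all genes were. The same 12 genes passed in each allele and in the same direction. In both alleles together 19.5% of all genes were higher and 22.2% lower. In all, 54.5% of members passed in each allele, close to the 47.0% and 47.7% of all genes. The mutant arrays did not overlap the WT arrays for 17 members in each allele, which was so for 72.1% of all genes in bin4-1 and 71.6% in bin4-2. The members' median log2 change was -0.02 for bin4-1, where all genes gave -0.08, and 0.01 for bin4-2, where all genes gave -0.09.

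**Figure D1:**
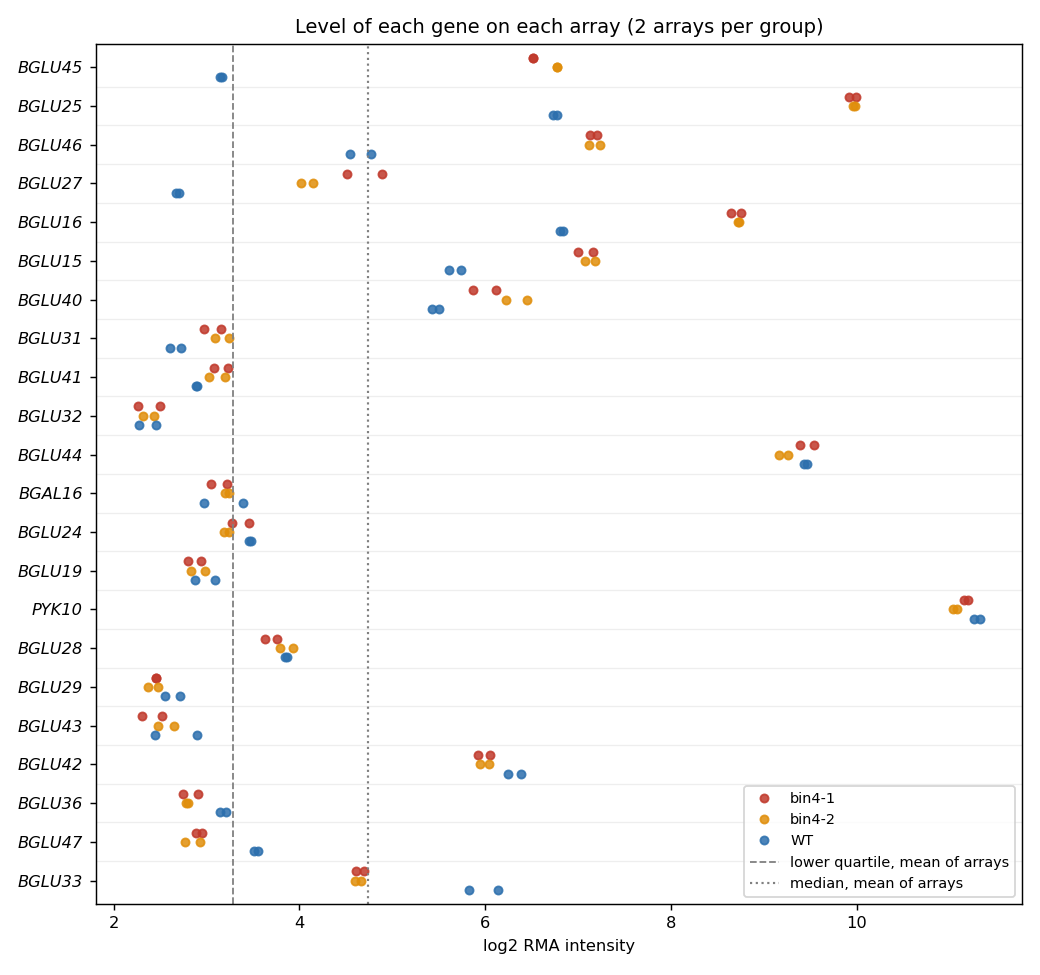
Level of each of the 22 genes on each array, as log2 RMA intensity (x axis), 2 points per group, with genes ordered by their change in bin4-1. The dashed and dotted lines are the lower quartile and the median, averaged over the 6 arrays. BGLU45, BGLU25, BGLU46, BGLU27, BGLU16 and BGLU15 stand above WT on all 4 mutant arrays, BGLU33 stands below it, and 7 genes lie under the lower quartile of the array on all 6 arrays.

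The monolignol branch held the largest rise. BGLU45 (AT1G61810) and BGLU46 (AT1G61820) encode enzymes that hydrolyse monolignol glucosides such as coniferin and syringin, the glucose-bound forms of lignin precursors. BGLU45 read 6.51 and 6.51 in bin4-1, 6.77 and 6.77 in bin4-2, and 3.14 and 3.17 in WT. Both WT values were under the lower quartile of their array (3.32 and 3.34), and no background level was set here, so its folds are read as lower bounds. It was at least 10.3-fold higher in bin4-1 (log2 3.36 ± 0.10, SE, adjusted p = 4.54e-10). In bin4-2 it was at least 12.3-fold higher (log2 3.62 ± 0.10, adjusted p = 3.14e-10).

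BGLU46 read 7.13 and 7.21 in bin4-1, 7.12 and 7.24 in bin4-2, and 4.78 and 4.54 in WT. The mutant and WT arrays did not overlap, and the 4 mutant arrays lay closer together than the 2 WT arrays. It was 5.69-fold higher in bin4-1 (log2 2.51 ± 0.11, adjusted p = 8.17e-09) and 5.74-fold higher in bin4-2 (log2 2.52 ± 0.11, adjusted p = 9.54e-09). BGLU47 (AT4G21760), the third gene of this branch, moved the other way. It averaged 2.92 ± 0.04 in bin4-1, 2.85 ± 0.11 in bin4-2 and 3.53 ± 0.03 in WT (SD, n = 2 each). The mutant values were under the lower quartile, so its falls may be underestimated in size. The measured log2 change was -0.61 ± 0.10 for bin4-1 (adjusted p = 4.46e-04). For bin4-2 it was -0.68 ± 0.10 (adjusted p = 2.04e-04).

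BGLU45 and BGLU46 are next to each other among the protein-coding genes of chromosome 1. Of the 7 other measured genes up to 5 positions from either, 1 was higher in bin4-1 and 2 in bin4-2, and 0 were lower, where 22.0% and 21.1% of all genes were higher and 25.0% and 26.6% lower. Their log2 changes ran from -0.22 to 0.65 in bin4-1 and from -0.21 to 0.48 in bin4-2. Both members of the pair rose by more than any measured neighbour in this window.

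Of 23 genes in a list of monolignol and lignin synthesis, 4 were measured. In each allele 1 was higher and 2 were lower, beside the 22.0% and 25.0% of all genes in bin4-1 and the 21.1% and 26.6% in bin4-2. HCT, an acyltransferase of the route to monolignols, rose by 0.59 ± 0.10 in bin4-1 and 0.52 ± 0.10 in bin4-2. UGT72E1 and UGT72E3, glucosyltransferases that put glucose on monolignols or their aldehydes, were lower in each allele. UGT72E1 gave -0.86 for bin4-1 with -0.90 for bin4-2, and UGT72E3 gave -0.47 with -0.50. UGT72E2, the related enzyme that forms coniferin, gave -0.02 and -0.20 and did not pass (adjusted p = 0.894 and 0.178). Over the 4 genes the median was -0.25 for bin4-1 and -0.35 for bin4-2. The fall of UGT72E3 in bin4-1 did not pass without bin4-1 replicate 1 (adjusted p = 0.0645) or WT replicate 1 (0.0808). In bin4-2 it did not pass without WT replicate 1 (0.0539), where the value of UGT72E2 passed (-0.34, adjusted p = 0.0418).

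In the ER-body branch, BGLU25 rose while PYK10 did not pass. BGLU25 (AT3G03640) read 9.99 and 9.92 in bin4-1, 9.98 and 9.96 in bin4-2, and 6.73 and 6.77 in WT. Both WT arrays were already above the array's upper quartile (6.36 to 6.44), and all 4 mutant arrays exceeded the 95th percentile of 8.82 to 8.88. BGLU25 was 9.21-fold higher in bin4-1 (log2 3.20 ± 0.10, adjusted p = 6.64e-10) and 9.32-fold higher in bin4-2 (log2 3.22 ± 0.10, adjusted p = 6.25e-10).

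PYK10 (AT3G09260), also named BGLU23, is the most abundant ER-body enzyme of roots and acts on coumarin and indole glucosides. It read 11.20 and 11.16 in bin4-1, 11.04 and 11.08 in bin4-2, and 11.33 and 11.26 in WT. Its probe set was above the 99th percentile of every group (99.5, 99.5 and 99.6 as mean percentile ranks in bin4-1, bin4-2 and WT). Mutant values lay just under WT without overlap. The change was -0.12 ± 0.10 for bin4-1, with a 95% interval from -0.34 to 0.10, and did not pass (adjusted p = 0.371). For bin4-2 it was -0.24 ± 0.10, with an interval from -0.46 to -0.02, and did not pass either (adjusted p = 0.0711). In bin4-2 the value passed under 4 of the alternatives, given in the closing section. BGLU19 (AT3G21370) and BGLU24 (AT5G28510), placed in the same branch, were dim. BGLU19 averaged 2.87 in bin4-1, 2.91 in bin4-2 and 2.98 in WT, and BGLU24 averaged 3.37, 3.21 and 3.47 in the same order. Neither passed in an allele, with changes between -0.25 and -0.08.

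Of 17 ER-body and PYK10-complex genes in a list, 6 were measured, of which 3 were lower in bin4-1 and 5 in bin4-2, with 0 higher. Lower calls made up 25.0% and 26.6% of all genes. Over the 6 genes the median was -0.38 for bin4-1 and -0.56 for bin4-2. The jacalin-related lectin genes JAL22 and JAL34 fell in each allele. JAL22 gave -1.02 for bin4-1 with -0.91 for bin4-2, and JAL34 gave -0.60 with -0.89. NAI2, a protein needed to form ER bodies, gave -0.48 with -0.70 and passed in each. NAI1, the transcription factor that PYK10 expression depends on, gave -0.29 for bin4-1 without passing (adjusted p = 0.0621), and -0.39 for bin4-2 (0.0169). The NAI1 call in bin4-2 was lost without bin4-2 replicate 2 (-0.24, adjusted p = 0.163). In bin4-1 NAI1 passed when only the groups compared were fitted (-0.29, adjusted p = 0.0413). Leaving out either bin4-2 array repeats that fit and is no separate check. No measured gene of this list rose, while BGLU25 did.

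BGLU27 and BGLU16, adjacent on chromosome 3, rose together. BGLU27 (AT3G60120) read 4.89 and 4.51 in bin4-1, 4.14 and 4.01 in bin4-2, and 2.71 and 2.67 in WT. In WT it sat near the 5th percentile of the array (2.63), so its folds are read as lower bounds. The gene was at least 4.04-fold higher in bin4-1 (log2 2.01 ± 0.13, adjusted p = 1.29e-07) and at least 2.62-fold higher in bin4-2 (log2 1.39 ± 0.13, adjusted p = 3.23e-06).

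BGLU16 (AT3G60130) read 8.75 and 8.65 in bin4-1, 8.72 and 8.74 in bin4-2, and 6.84 and 6.81 in WT. The 4 mutant arrays lay close together and none overlapped WT. It was 3.67-fold higher in bin4-1 (log2 1.87 ± 0.10, adjusted p = 3.07e-08) and 3.74-fold higher in bin4-2 (log2 1.90 ± 0.10, adjusted p = 3.22e-08). The 4 other measured genes up to 5 positions from the pair all passed in both alleles, 3 higher and 1 lower, where 47.0% of all genes passed in bin4-1 and 47.7% in bin4-2. Their changes ran from -0.46 to 1.32 in bin4-1 and from -0.65 to 1.36 in bin4-2, with no rise as large as that of BGLU16.

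BGLU15 rose beside a pair of related genes that did not pass. BGLU15 (AT2G44450) encodes an enzyme that removes glucose from flavonol bisglycosides. It read 7.16 and 7.00 in bin4-1, 7.08 and 7.18 in bin4-2, and 5.74 and 5.61 in WT, again without overlap between mutant and WT arrays. It was 2.65-fold higher in bin4-1 (log2 1.40 ± 0.11, adjusted p = 6.64e-07) and 2.74-fold higher in bin4-2 (log2 1.46 ± 0.11, adjusted p = 5.31e-07). The next gene on chromosome 2 is BGLU28 (AT2G44460), which is known for glucosinolate breakdown under sulfur shortage. It averaged 3.69 ± 0.09 in bin4-1, 3.86 ± 0.10 in bin4-2 and 3.86 ± 0.02 in WT (SD, n = 2 each). Its changes were -0.16 and 0.00 (adjusted p = 0.237 and 0.982). BGLU29 (AT2G44470), 2 positions from BGLU15, was under the lower quartile on every array, averaging 2.46 in bin4-1, 2.42 in bin4-2 and 2.63 in WT. Its changes were -0.18 and -0.21 (adjusted p = 0.201 and 0.12).

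**Figure D2:**
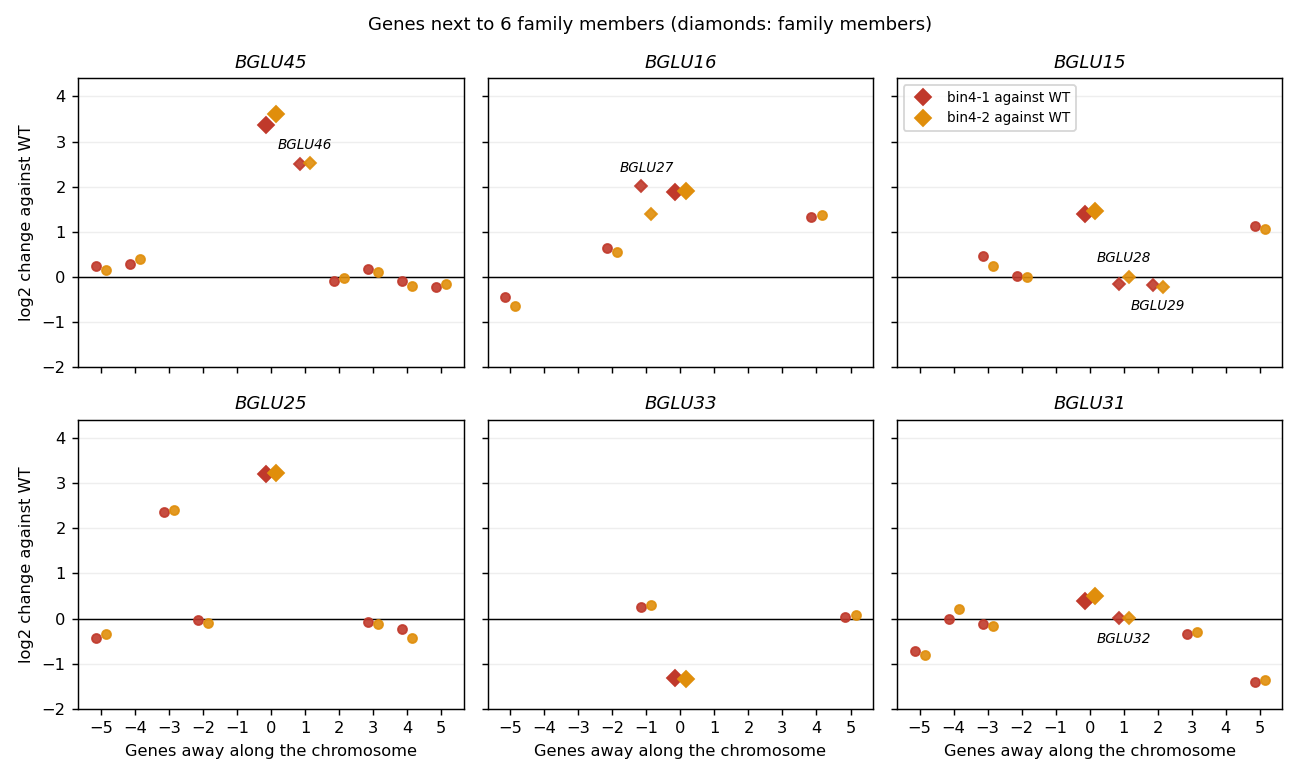
log2 change against WT (y axis) of 6 family members and of the measured genes up to 5 protein-coding genes away on either side (x axis, in genes), for bin4-1 and bin4-2. Diamonds are family members and circles other genes. BGLU45 and BGLU46 stand above the plotted neighbours of BGLU45, which lie between -0.22 and 0.40, while the surroundings of BGLU16, BGLU15 and BGLU25 hold other rises above 1.

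BGLU25 had no family member beside it. Of 5 measured neighbours, AT3G03610, 3 positions away, rose by 2.37 for bin4-1, with 2.42 for bin4-2. The other neighbours of BGLU25 lay between -0.44 and -0.02. Around all 22 members, 71 other genes were measured, of which 16 were higher and 16 lower in bin4-1, and 15 and 18 in bin4-2. These counts are near the shares over all genes, 22.0% higher and 25.0% lower in bin4-1, and 21.1% and 26.6% in bin4-2. The neighbours' median was -0.02 for bin4-1, where all genes gave -0.08, and -0.09 for bin4-2, where all genes gave -0.09.

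BGLU33 showed the largest fall of the family. BGLU33 (AT2G32860), also called BG2, is a vacuolar enzyme that frees abscisic acid from its glucose ester. It read 4.61 and 4.70 in bin4-1, 4.60 and 4.66 in bin4-2, and 5.83 and 6.14 in WT. The WT arrays differed from each other by more than the 4 mutant arrays did, but the groups stayed apart. It was 2.51-fold lower in bin4-1 (log2 -1.33 ± 0.12, adjusted p = 2.35e-06) and 2.55-fold lower in bin4-2 (log2 -1.35 ± 0.12, adjusted p = 2.15e-06). Of 14 genes in a list of abscisic acid release and turnover, 3 glucosyltransferase genes were measured, and 1 was higher and 0 were lower in each allele. Over all genes 22.0% were higher and 25.0% lower in bin4-1, and 21.1% and 26.6% in bin4-2, and 1 call in 3 genes is near these shares. UGT71B6, which forms the glucose ester of abscisic acid, rose by 1.69 ± 0.13 in bin4-1 and 1.72 ± 0.13 in bin4-2. UGT71C5 gave 0.09 for bin4-1 with 0.02 for bin4-2, and UGT71B8 gave 0.06 with -0.01, without passing. Over the 3 genes the median was 0.09 for bin4-1 and 0.02 for bin4-2.

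BGLU42 (AT5G36890) acts in root immunity and releases iron-mobilising coumarins from their glucosides. It averaged 5.99 ± 0.10 in bin4-1, 5.99 ± 0.07 in bin4-2 and 6.32 ± 0.10 in WT (SD, n = 2 each). The change was -0.33 ± 0.11 for bin4-1 (adjusted p = 0.0264). For bin4-2 it was -0.32 ± 0.11 (adjusted p = 0.0285). Neither call held when some arrays were left out. The bin4-1 change was -0.40 without bin4-1 replicate 1 (adjusted p = 0.0501), -0.26 without bin4-1 replicate 2 (0.185) and -0.26 without WT replicate 2 (0.12). The bin4-2 change was -0.27 without bin4-2 replicate 1 (adjusted p = 0.138), -0.37 without bin4-2 replicate 2 (0.0518) and -0.25 without WT replicate 2 (0.126). Of 10 genes in a coumarin and scopolin list, 4 were measured, and 2 were higher and 1 lower in each allele, beside 22.0% and 25.0% of all genes in bin4-1 and 21.1% and 26.6% in bin4-2. AT3G13610, the feruloyl-CoA hydroxylase F6'H1 that opens coumarin synthesis, rose by 2.25 ± 0.11 in bin4-1 and 2.14 ± 0.11 in bin4-2. The glucosyltransferase genes UGT73B4 and UGT71C1 moved in opposite directions. UGT73B4 gave 1.65 for bin4-1 with 1.48 for bin4-2, and UGT71C1 gave -1.58 with -1.44. Over the 4 genes the median was 0.89 for bin4-1 and 0.83 for bin4-2.

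Other lists had 1 or 2 measured genes. Of 17 sugar-starvation genes 2 were measured and both rose: ATL8 by 2.22 and 1.70, and AKINBETA1 by 0.45 and 0.37, in bin4-1 and bin4-2. Higher calls made up 22.0% of all genes in bin4-1 and 21.1% in bin4-2. The AKINBETA1 call was lost in bin4-1 without bin4-1 replicate 2 (adjusted p = 0.0572), and in bin4-2 without bin4-2 replicate 1 (0.0954) or WT replicate 2 (0.0543). UGT74B1, the 1 measured gene of 19 for indole glucosinolates and camalexin, gave 0.36 and 0.37 (adjusted p = 0.0178 and 0.0146). It failed without bin4-1 replicate 1 (0.0777), bin4-1 replicate 2 (0.0858) or WT replicate 1 (0.0629) in bin4-1, and without bin4-2 replicate 2 (0.13) or WT replicate 1 (0.0532) in bin4-2. CSLC04, a xyloglucan glucan synthase and the 1 measured gene of 23 for xyloglucan and galactan, gave -0.14 and -0.25 without passing (adjusted p = 0.302 and 0.0678). A list of 8 family 1 genes under other names, myrosinases among them, had 0 measured genes beyond the members described here.

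**Figure D3:**
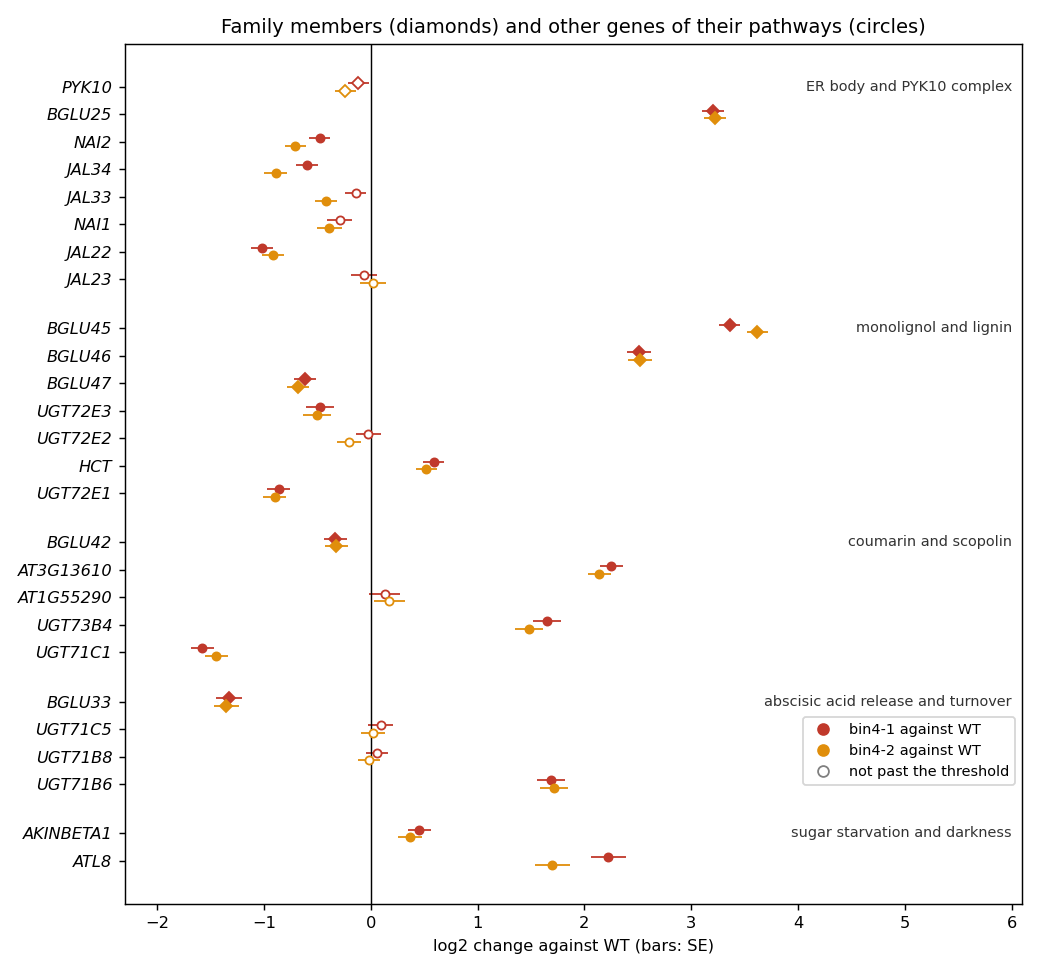
log2 change against WT (x axis, bars are limma's SE) of 7 family members (diamonds) and of other genes from their pathway lists (circles), for bin4-1 and bin4-2. Filled symbols passed an adjusted p of 0.05 and open ones did not. BGLU45 and BGLU46 lie above 2.5, and the UGT72E genes at or below 0. Beside them HCT lies at 0.59 and 0.52 and BGLU47 at -0.61 and -0.68, in bin4-1 and bin4-2. BGLU33 lies below -1.3, UGT71B6 near 1.7, and UGT71C5 and UGT71B8 between -0.01 and 0.09. BGLU25 stands apart from the ER-body genes.

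The other members changed by less than 2-fold, and many were dim. BGLU40 (AT1G26560) read 6.11 and 5.87 in bin4-1, 6.45 and 6.22 in bin4-2, and 5.50 and 5.43 in WT. It rose by 0.53 ± 0.12 in bin4-1 (adjusted p = 0.00365) and 0.87 ± 0.12 in bin4-2 (adjusted p = 8.94e-05). Without bin4-1 replicate 1 its bin4-1 change was 0.41 and did not pass (adjusted p = 0.0541). BGLU44 (AT3G18080), which acts on beta-mannosides, averaged 9.46 ± 0.10 in bin4-1, 9.21 ± 0.08 in bin4-2 and 9.45 ± 0.02 in WT (SD, n = 2 each). Its changes were 0.02 and -0.24 (adjusted p = 0.923 and 0.0887). Its neighbour on chromosome 3 is BGLU43 (AT3G18070).

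On all 6 arrays 7 members lay under the array's lower quartile, between 2.26 and 3.24: BGLU31, BGLU41, BGLU32, BGLU19, BGLU29, BGLU43 and BGLU36. At this level a change on the array is a bound at most. BGLU31 averaged 3.06 in bin4-1, 3.17 in bin4-2 and 2.66 in WT. Means in the same order were 3.16, 3.11 and 2.89 for BGLU41, 2.38, 2.37 and 2.37 for BGLU32, 2.41, 2.56 and 2.67 for BGLU43, and 2.83, 2.79 and 3.18 for BGLU36. Of these, BGLU31 (AT5G24540) passed as higher, by 0.40 for bin4-1 (adjusted p = 0.0125) with 0.50 for bin4-2 (0.00306). BGLU36 (AT1G51490), of the myrosinase branch, passed as lower, at -0.35 and -0.39 (adjusted p = 0.0169 and 0.00945). In bin4-1, BGLU31 did not pass without bin4-1 replicate 2 (adjusted p = 0.126) or WT replicate 2 (0.0598), nor BGLU36 without bin4-1 replicate 2 (0.158) or WT replicate 1 (0.0611). BGLU31 and BGLU32 are adjacent, 10 and 9 protein-coding genes from BIN4 on chromosome 5, and BGLU32 gave 0.02 and 0.01 without passing. BGLU41 (AT5G54570) gave 0.27 and 0.22 (adjusted p = 0.0665 and 0.121). BGLU43 gave -0.26 and -0.11 (adjusted p = 0.18 and 0.577), and in bin4-1 it passed without WT replicate 2 (-0.48, adjusted p = 0.0162).

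BGAL16 (AT1G77410), the only beta-galactosidase measured, read 3.04 and 3.22 in bin4-1, 3.20 and 3.24 in bin4-2, and 2.97 and 3.39 in WT. The groups overlapped. Its changes were -0.05 ± 0.14 and 0.04 ± 0.14 (adjusted p = 0.806 and 0.838). The 95% intervals, from -0.35 to 0.25 and from -0.26 to 0.34, apply to a dim probe set.

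Between the alleles, 0 of 22 members passed, where 0.247% of all genes did, 0.127% higher and 0.120% lower. Calls of at least 2-fold numbered 0 among members, beside 0.0374% of all genes higher and 0.00749% lower. The arrays of the alleles did not overlap for 7 of the 22 members and for 38.7% of all genes. An unadjusted limma p under 0.05 was reached by 4 of the 22 members, a larger share than the 6.80% of all genes. The median size of the difference was smaller for members, at 0.06, than for all genes, at 0.09. The differences, bin4-1 minus bin4-2, ran from -0.35 to 0.62 on the log2 scale, and the median 95% interval reached 0.24 to either side. The difference farthest from 0 was that of BGLU27, 0.62 ± 0.13 (95% interval 0.34 to 0.91, adjusted p = 0.0959), and both bin4-1 arrays were above both bin4-2 arrays. With an intensity trend in the variance model the BGLU27 difference passed (adjusted p = 0.0479). BGLU40 gave -0.35 (95% interval -0.61 to -0.08, adjusted p = 0.538), BGLU45 gave -0.26 (-0.47 to -0.04, 0.598) and BGLU44 gave 0.25 (0.02 to 0.48, 0.681). For BGLU25, BGLU46, BGLU16, BGLU15 and BGLU33 the difference lay between -0.05 and 0.02, with intervals between -0.29 and 0.29.

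**Figure D4:**
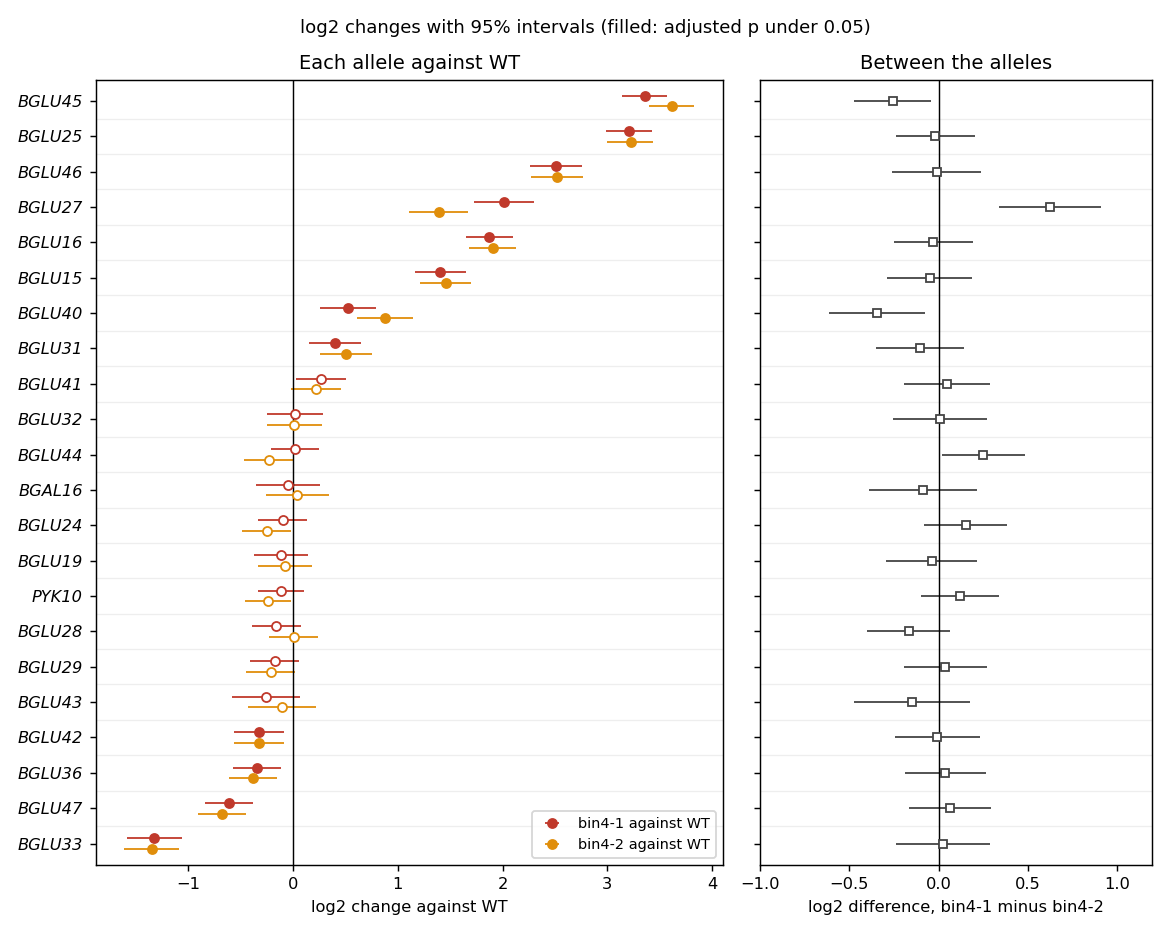
log2 change of each of the 22 genes in bin4-1 and bin4-2 against WT (left) and difference between the alleles, bin4-1 minus bin4-2 (right), with 95% intervals. Filled symbols passed an adjusted p of 0.05: the same 12 genes for each allele and 0 between alleles, where BGLU27 lies farthest from 0 at 0.62.

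Some of the measured tissue markers fell and others did not pass. Of 12 leaf photosynthesis markers 4 were measured and all 4 fell in each allele, where 25.0% of all genes were lower in bin4-1 and 26.6% in bin4-2, with a median of -2.16 for bin4-1 and -1.82 for bin4-2. The steepest were PRK, an enzyme of the Calvin cycle, at -2.41 and -2.05, and RCA, the activase of Rubisco, at -2.20 and -1.83. Their summed intensity was 2388 to 2410 in bin4-1, 2849 to 2936 in bin4-2 and 9983 to 10208 in WT. Of 14 root and root-hair markers 2 were measured, EXPA18 and EXPA7. Their summed intensity was 48.7 to 50.8 in bin4-1, 38.5 to 38.9 in bin4-2 and 79.1 to 84.9 in WT. EXPA18 fell in each allele, at -1.09 and -1.46, and EXPA7 gave -0.21 and -0.57 and passed for bin4-2 (adjusted p = 0.00163) but not bin4-1 (0.174); the difference between alleles did not pass (0.464). The single measured myrosin-cell gene (FMA) changed by 0.02 and -0.05 and the single seed gene (M17) by -0.00 and -0.08, without passing. Of the xylem and guard-cell lists 0 members were measured. The part of tissue makeup in the changes of the family was not tested. Whether probes cross-hybridise between close family members was not tested either.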

How the data were processed

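The deposited values are intensities on a linear scale, which the authors computed with RMA per the submitters' processing notes, with no version or settings stated there. Labelling was with biotin, per the labels. After log2 transformation, the 13513 probe sets with 1 gene in the platform annotation were kept (13436 matched to RefSeq TAIR10.1 by gene identifier, for names and gene order only). Probe sets with several genes (503), without a gene (8730) and controls (64) were left out. For the 146 genes with several probe sets the brightest was used, which left 13356 genes. Each member had 1 probe set.

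limma 3.58.1 (R 4.3.3) fitted 3 group means to all 6 arrays (3 residual and 8.25 prior degrees of freedom). Tests were two-sided, adjusted by Benjamini-Hochberg over all genes, with a threshold of 0.05. Errors after ± are limma's SE unless marked SD. The code was tested on simulated data. The number of arrays limits the precision. A p-value here reflects array-to-array spread alone, possibly technical. Every member is named. Per-array values are given for members that passed with a log2 change of at least 1, for PYK10, and, chosen after their values were seen, for BGLU40 and BGAL16. Of each list, the 2 largest rises and falls shared by both alleles are named, and NAI1, NAI2, UGT72E2, UGT71C5, UGT71B8, CSLC04, EXPA7, FMA and M17 were added after their values were seen. Members and lists were chosen with earlier results of these data known. Tables used pandas 2.3.3 and numpy 2.4.6 under Python 3.11.15, and plots used matplotlib 3.10.9.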

Additional observations from a re-analysis of the deposited data

How the results depend on the processing

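No change that passed, in the reported fit or under an alternative, had the opposite sign in the other of the 2. Changes that passed in neither could differ in sign, as for BGLU44 in bin4-1 (-0.06 to 0.09) and BGLU43 in bin4-2 (-0.33 to 0.11). Of the members' values under the alternatives, 888 kept their side of the threshold, 15 lost a call and 12 gained one. With only genes whose midpoint log2 was at least 5, 7 members passed in bin4-1 against 12, since 9 members were left to test. Between the alleles, an intensity trend gave 1 call, BGLU27, against 0. Leaving out an array of the group not compared repeats the fit of only the groups compared, so these settings are not separate checks. Leaving out 1 array at a time gave 9 to 12 calls in bin4-1, 11 to 12 in bin4-2 and 0 between the alleles. The replicate block, by title suffix, gave 12, 12 and 0 calls, with the same 12 genes. Replicate differences correlated at -0.04, -0.00 and 0.08 between groups, so the suffix pairs nothing that shows across genes. BGLU45, BGLU25, BGLU46, BGLU16, BGLU15, BGLU33, BGLU27 and BGLU47 passed in both alleles under every alternative that tested them. Of the changes of at least 2-fold, only those of BGLU27 and BGLU33 fell below 2-fold, with log2(intensity + 16). BGLU27 then gave 0.91 for bin4-1 with 0.55 for bin4-2, and BGLU33 gave -0.94 with -0.96. PYK10 passed in bin4-2 among genes with a mean or midpoint log2 of at least 5 (adjusted p = 0.0265 and 0.0266), with log2(intensity + 16) (0.00615) and with an intensity trend (6.94e-04). BGLU44 passed in bin4-2 under the same 4 settings (0.0392, 0.0396, 0.0253 and 0.00708). After quantile normalization BGLU41 passed in both alleles (0.0199 and 0.0279) and BGLU36 failed in bin4-1 (0.0534). With log2(intensity + 16), BGLU31 failed in bin4-1 (0.0775) and BGLU36 in both alleles (0.0739 and 0.0525). CSLC04 passed in bin4-2 under 5 settings. The cause of these shifts was not tested. Low signal limits 7 members that were under the lower quartile on every array.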

Other observations

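A further probe set was assigned by the platform annotation to 2 genes at once, a family gene among them, and so given to neither. It read 7.69 and 7.67 in bin4-1, 7.01 and 7.18 in bin4-2, and 7.27 and 7.25 in WT. In the fit of all 22746 probe sets limma gave a change of 0.42 ± 0.10 for bin4-1 (adjusted p = 0.00498). For bin4-2 it gave -0.16 ± 0.10 (adjusted p = 0.204). The alleles differed by 0.59 ± 0.10, bin4-1 minus bin4-2 (adjusted p = 0.0587), which misses the threshold. Both bin4-1 arrays were above, and both bin4-2 arrays below, both WT arrays.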
